A study of Rattus norvegicus with 16 samples.

Results

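The Hippo pathway and its transcription factors were followed through 10 genes of the 31038 in the rat gene tables. The genes were the coactivators Yap1 and Wwtr1 and the DNA-binding partners Tead1, Tead2, Tead3 and Tead4. With them stood the kinases Lats1 and Lats2 and the adaptors Ajuba and Amotl2. The list was chosen with earlier results of these data known. All 10 were present in the tables and passed the filter on low counts in each of the 15 comparisons. RNA was sequenced from immunopanned Schwann cells and from whole sciatic nerve, uncrushed or 3, 5 and 7 days after a crush. That made 8 groups of 2 libraries each, 16 in all.

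Every sample came from rats labelled postnatal day 18, the age at which nerves were crushed, and no strain, transgene or drug group was labelled. Crushed samples held the segment distal to the injury, uncrushed samples held the matching segment of naive nerve, and no sham operation was done. Age at collection and injury therefore cannot be told apart for nerves collected days after the crush, unless the naive nerves were of matched age, which the labels do not say. Each sample pooled at least 10 nerves. Schwann cells were released with collagenase and dispase, depleted of cells carrying CD45 or Thy1, and selected with the O4 antibody, whereas whole nerve was not dissociated.

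Hippo signaling is a kinase cascade that restrains growth. When it is active, LATS kinases phosphorylate YAP (Yap1) and TAZ (Wwtr1), which then stay in the cytoplasm or are degraded. When it is inactive, both enter the nucleus and, through TEAD proteins, activate target genes such as Ccn1 and Ccn2. In Schwann cells YAP and TAZ are known to be needed for proliferation and myelination during development. RNA levels say nothing about phosphorylation or location of these proteins.

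Because TEAD proteins bind the 6-letter word CATTCC, or GGAATG on the other strand, promoters that hold it are shown for 3 of the 10 genes and for the target Ccn2. RefSeq promoter windows of build GRCr8, from 250 bases before to 50 after the gene start, were found for 6 members: Yap1, Wwtr1, Tead3, Lats1, Ajuba and Amotl2. Tead1, Tead2, Tead4 and Lats2 had no entry. The word, in capitals, is in 3 of those 6 windows, at -116 in Yap1, -76 in Amotl2 and -236 in Ajuba relative to the gene start. Ccn2 holds it 3 times. Each is written 5′ to 3′ on the strand of the gene.

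Yap1 (GRCr8, chr8:13451388-13451687, minus strand): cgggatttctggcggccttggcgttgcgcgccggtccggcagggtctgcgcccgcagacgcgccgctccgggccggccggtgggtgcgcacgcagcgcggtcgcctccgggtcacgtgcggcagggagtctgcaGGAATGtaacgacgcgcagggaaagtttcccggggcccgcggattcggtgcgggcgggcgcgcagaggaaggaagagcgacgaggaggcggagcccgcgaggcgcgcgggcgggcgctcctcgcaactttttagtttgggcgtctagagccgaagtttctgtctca

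Amotl2 (GRCr8, chr8:112182376-112182675, plus strand): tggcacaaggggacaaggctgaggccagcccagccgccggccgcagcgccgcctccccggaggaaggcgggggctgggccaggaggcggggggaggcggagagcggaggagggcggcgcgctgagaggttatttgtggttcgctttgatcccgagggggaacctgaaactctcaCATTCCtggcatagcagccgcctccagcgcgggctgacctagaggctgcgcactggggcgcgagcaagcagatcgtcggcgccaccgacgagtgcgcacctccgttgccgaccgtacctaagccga

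Ajuba (GRCr8, chr15:31999993-32000292, minus strand): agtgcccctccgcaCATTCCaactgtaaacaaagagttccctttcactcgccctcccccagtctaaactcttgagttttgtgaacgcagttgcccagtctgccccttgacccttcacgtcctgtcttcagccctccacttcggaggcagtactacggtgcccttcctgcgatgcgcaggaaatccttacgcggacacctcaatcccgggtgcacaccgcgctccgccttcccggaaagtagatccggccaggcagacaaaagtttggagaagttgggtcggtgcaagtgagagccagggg

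Ccn2 (GRCr8, chr1:22624565-22624864, minus strand): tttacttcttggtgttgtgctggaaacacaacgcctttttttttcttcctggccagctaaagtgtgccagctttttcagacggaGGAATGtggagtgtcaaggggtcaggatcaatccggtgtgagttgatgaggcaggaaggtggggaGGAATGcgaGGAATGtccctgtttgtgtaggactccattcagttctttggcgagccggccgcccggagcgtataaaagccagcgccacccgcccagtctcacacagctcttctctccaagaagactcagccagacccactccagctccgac

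Of all 33469 RefSeq promoters of this length, 14.2% hold the word on either strand. A match is a description of letters and not a binding site.

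Library depth ranged from 10555067 to 27562637 counts. Levels are given as FPKM (fragments scaled to transcript length and library size) divided by the TMM factor of the library, called TMM-scaled FPKM. Genes of the mitochondrial genome took 14.2% to 15.6% of counts in uncrushed whole nerve and 2.9% to 8.83% elsewhere. Log2 fold changes come from edgeR on the counts, given with their standard error (SE), and a gene was called at a Benjamini-Hochberg adjusted p below 0.05 over all genes tested. Where nothing else is said, "rose" and "fell" mean called. The 8 Schwann cell markers summed to 8824 and 9328 in uncrushed Schwann cells and 4210 to 6562 in crushed ones, against 22080 and 26290 in uncrushed whole nerve and 2291 to 4668 after crush. The sum was thus higher in uncrushed whole nerve than in purified cells, although 5 of the 8 were called higher in the purified cells and 3 lower (median log2 1.28). Over all genes 29.1% were called higher and 35.3% lower there. At day 3, where 24.5% of all genes were called higher, all 8 were higher in purified cells. The 6 macrophage markers summed to 2.43 to 12.6 there, none at 0 in both libraries of a group, against 145 to 521 in whole nerve. The 5 endothelial markers summed to 0.563 to 4.11 against 90.7 to 108, with Pecam1 at 0 in uncrushed and Esam at 0 in day 7 Schwann cells. The 5 fibroblast markers summed to 229 to 555 against 4507 to 5853, with Col1a2 listed at 0 in both whole nerve libraries of day 5.

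Among the coactivators, Yap1 rose in Schwann cells early after crush and then declined, while no difference was called for Wwtr1. Yap1 stood at 21.8 and 19.9 in the uncrushed Schwann cell libraries. It reached 38.0 and 42.2 at day 3, then 30.7 and 29.4 at day 5, then 22.6 and 27.3 at day 7. All crushed libraries were above both uncrushed ones, with the smallest gap at day 7.

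In edgeR Yap1 rose 1.97-fold at day 3 (log2 0.98, SE 0.12, adjusted p = 9.81e-05) and 1.46-fold at day 5 (log2 0.55, SE 0.12, adjusted p = 0.0035). The day 7 difference of 0.28 (SE 0.12) missed the threshold at adjusted p = 0.0808. From day 3 to day 7 Yap1 fell by 0.70 on the log2 scale (adjusted p = 0.00275). Without day 7 replicate 1 the day 7 difference was 0.42 and passed (adjusted p = 0.034).

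Wwtr1 was the steadiest of the 10 genes in Schwann cells, with a highest group mean 1.09 times the lowest. Its libraries read 65.9 and 62.9 in uncrushed cells, 61.4 and 62.0 at day 3, then 68.4 and 60.1 at day 5, then 68.7 and 66.3 at day 7. Its log2 differences from uncrushed cells were -0.03, 0.01 and 0.08 (SE 0.10 each), none called. Per length Wwtr1 thus exceeded Yap1 in every library of both tissues.

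In whole nerve Yap1 was called at day 3 alone. Libraries read 33.6 and 29.9 uncrushed, 38.7 and 40.6 at day 3, then 37.0 and 33.8 at day 5, then 33.6 and 36.2 at day 7. Day 3 libraries were well above the uncrushed ones, and at the later days the lower crushed library was at about the level of the higher uncrushed one. The day 3 rise of 0.26 (SE 0.09, adjusted p = 0.0454) was lost without uncrushed replicate 2 (0.18, adjusted p = 0.231), day 3 replicate 1 (0.30, adjusted p = 0.0853) or day 3 replicate 2 (0.22, adjusted p = 0.199). Wwtr1 stayed between 43.6 and 52.0 in the 8 whole nerve libraries, with no difference called.

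**Figure D1:**
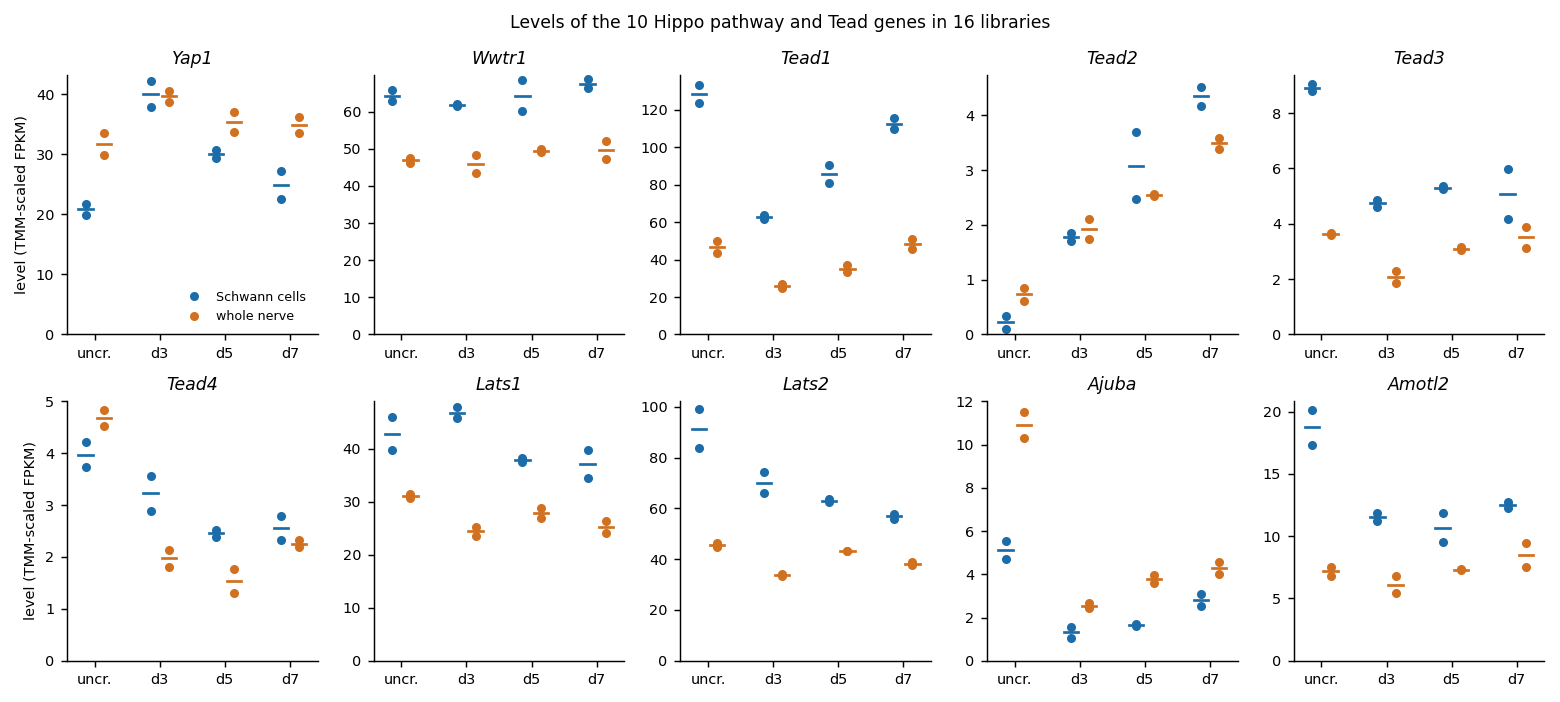
Level of each of the 10 genes (TMM-scaled FPKM, linear axis from 0) in uncrushed nerve (uncr.) and 3, 5 and 7 days after crush (d3, d5, d7). Each point is 1 library and each bar the mean of 2, blue for Schwann cells and orange for whole nerve. Yap1 peaks at day 3 in both tissues, Tead1 is lowest at day 3, Tead2 climbs from near 0, and Wwtr1 is nearly level.

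The 4 TEAD genes moved in different directions. Tead1 and Tead3 fell, Tead4 fell in whole nerve at every day, and Tead2 rose from a very low level. Tead1 made up 86.0% to 91.3% of the summed TEAD level in Schwann cells and 80.1% to 85.2% in whole nerve.

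Tead1 was the most abundant of the 10 genes per length in uncrushed Schwann cells, at 133.5 and 123.6. It read 63.8 and 61.8 at day 3, then 90.6 and 81.2 at day 5, then 109.6 and 116 at day 7. The 4 groups did not overlap, and the level returned most of the way by day 7. Tead1 fell 2.01-fold at day 3 (log2 -1.01, SE 0.10, adjusted p = 2.36e-05) and 1.47-fold at day 5 (log2 -0.56, SE 0.10, adjusted p = 0.00107). At day 7 the difference was -0.17 (SE 0.10, adjusted p = 0.17), and from day 3 to day 7 Tead1 rose by 0.83 on the log2 scale (adjusted p = 0.000426).

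Whole nerve showed a dip of Tead1 at a lower level. Its libraries read 43.6 and 50.2 uncrushed, 25.0 and 27.1 at day 3, then 33.4 and 37.0 at day 5, then 45.6 and 51.1 at day 7. The log2 differences were -0.92 (adjusted p = 5.22e-05), -0.52 (adjusted p = 0.00314) and -0.05 (adjusted p = 0.77). The test of the difference between tissues was not passed at any day, at -0.18, -0.16 and -0.24 (SE 0.15 each).

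Tead2 is a TEAD gene known for its expression in the early embryo. It was nearly absent from uncrushed Schwann cells, with 3 and 8 counts, or 0.106 and 0.331. Levels were 1.71 and 1.86 at day 3, then 2.47 and 3.69 at day 5, then 4.17 and 4.52 at day 7. No group overlapped another, and counts reached 149. The log2 rises were 3.07 (SE 0.43, adjusted p = 0.000255), 3.84 (SE 0.42, adjusted p = 5.14e-05) and 4.33 (SE 0.42, adjusted p = 2.99e-05), all against the 11 counts of the uncrushed pair. Leaving out uncrushed replicate 1 or 2 moved the day 3 value to 2.44 or 4.01, and over single omissions the day 5 value was 3.21 to 4.78 and the day 7 value 3.71 to 5.28, with all calls intact. The gene passed the filter through its crushed groups alone, so that it entered the test only because it was higher there. With no filter on low counts it was called at each day as well.

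In whole nerve Tead2 read 0.61 and 0.852 uncrushed, 2.10 and 1.75 at day 3, then 2.56 and 2.53 at day 5, then 3.39 and 3.59 at day 7. It rose by 1.35 (adjusted p = 0.00258), 1.72 (adjusted p = 0.000707) and 2.19 (adjusted p = 0.000167) on the log2 scale. In RefSeq's GRCr8 annotation the Tead2 record overlaps that of Cd37, a gene of leukocytes, and the library kit does not mark strand. Cd37 rose in whole nerve too, by 1.60, 0.91 and 0.92 (adjusted p = 0.000767, 0.0246 and 0.0293). In Schwann cells Cd37 had 0 to 19 counts a library, with 1 and 0 at day 7, where Tead2 had 149 and 113. Whether reads of Cd37 entered the Tead2 estimate in whole nerve was not tested.

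Tead3 fell in Schwann cells at every day, from 9.04 and 8.79 to 4.87 and 4.62 at day 3, then 5.37 and 5.25 at day 5, then 5.99 and 4.16 at day 7. Uncrushed libraries were above all 6 crushed ones. Log2 differences were -0.88, -0.73 and -0.79 (SE 0.17 each, adjusted p = 0.00192, 0.00537 and 0.00456). In whole nerve Tead3 read 3.68 and 3.60 uncrushed and 2.29 and 1.86 at day 3, a log2 difference of -0.88 (SE 0.20, adjusted p = 0.00419). At days 5 and 7 the whole nerve differences of -0.33 and -0.15 were not called.

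Tead4 fell in Schwann cells at days 5 and 7. It read 3.74 and 4.21 uncrushed, 2.89 and 3.56 at day 3, then 2.39 and 2.52 at day 5, then 2.80 and 2.33 at day 7. Its log2 differences were -0.28 at day 3 (adjusted p = 0.157), -0.67 at day 5 (adjusted p = 0.00529) and -0.61 at day 7 (adjusted p = 0.01). The day 7 call was lost without day 7 replicate 2 (-0.49, adjusted p = 0.0711).

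In whole nerve Tead4 fell from 4.53 and 4.83 to 1.82 and 2.14 at day 3, then 1.31 and 1.77 at day 5, then 2.32 and 2.18 at day 7. Those log2 differences were -1.31, -1.70 and -1.20 (adjusted p = 0.000214, 5.64e-05 and 0.000736). Uncrushed whole nerve was the highest of the 8 groups for Tead4 by TMM-scaled level. By deposited FPKM its mean was 3.84, below the 4.035 of uncrushed Schwann cells. The edgeR difference between these groups, Schwann cells minus whole nerve, was not called (log2 -0.24, adjusted p = 0.23). Some Tead4 counts were fractional, as the RSEM estimate splits reads shared with other records, and RefSeq lists a record of related name, Tead4l1.

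The kinases that act on YAP and TAZ were abundant, and their ratio shifted. Lats2 fell in Schwann cells, from 99.1 and 83.8 to 74.4 and 65.9 at day 3, then 63.7 and 62.6 at day 5, then 58.0 and 55.8 at day 7. All 6 crushed libraries were below both uncrushed ones. The log2 differences were -0.35 (SE 0.11, adjusted p = 0.0201), -0.51 (SE 0.11, adjusted p = 0.00291) and -0.66 (SE 0.11, adjusted p = 0.000814). The day 3 call was lost without uncrushed replicate 1 (-0.22, adjusted p = 0.101) or day 3 replicate 2 (-0.26, adjusted p = 0.18), and with only the 4 libraries compared (-0.35, adjusted p = 0.0508).

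Lats1 in Schwann cells read 45.9 and 39.7 uncrushed, 47.8 and 45.8 at day 3, then 37.4 and 38.3 at day 5, then 34.5 and 39.8 at day 7. Uncrushed cells overlapped days 3 and 7 and were above day 5, and no difference from uncrushed was called (0.18, -0.12 and -0.15, SE 0.11 each). In whole nerve both kinases were lower at day 3. Lats1 went from 30.7 and 31.5 to 23.6 and 25.2 (log2 -0.42, SE 0.09, adjusted p = 0.00317). Lats2 went from 44.8 and 46.6 to 33.3 and 34.2 (log2 -0.51, SE 0.08, adjusted p = 0.000449).

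At day 5 Lats1 was lower in whole nerve (log2 -0.25, adjusted p = 0.0469), and this call was lost without any 1 of the 4 libraries concerned (-0.30 to -0.19). At day 7 Lats1 (log2 -0.39, adjusted p = 0.00688) and Lats2 (log2 -0.35, adjusted p = 0.00713) were lower. The Lats1 call there was lost without day 7 replicate 1 (-0.31, adjusted p = 0.0607), and that of Lats2 with all 16 libraries in one fit (-0.25, adjusted p = 0.0599).

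Ajuba and Amotl2 encode cytoplasmic proteins tied to the pathway. Ajuba is a LIM protein that binds LATS kinases and reduces their activity toward YAP, and Amotl2 is an angiomotin family protein that can hold YAP at junctions and is itself a known YAP target. Ajuba showed the largest fall of the 10 genes in each tissue at day 3.

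Ajuba in Schwann cells read 5.53 and 4.72 uncrushed, 1.58 and 1.04 at day 3, then 1.68 and 1.59 at day 5, then 3.08 and 2.55 at day 7. No crushed library reached an uncrushed one. It fell 3.90-fold at day 3 (log2 -1.96, SE 0.23, adjusted p = 6.66e-05), 3.08-fold at day 5 (adjusted p = 0.000221) and 1.79-fold at day 7 (adjusted p = 0.00993). The 4 pericyte and smooth muscle markers also summed lower in crushed Schwann cells (7.47 to 17.2) than in uncrushed ones (34.9 and 46.0), with 1 of 4 called, Pdgfrb, and summed to 271 to 360 in whole nerve. Their part in the Ajuba values was not tested. The rise of 1.12 from day 3 to day 7 passed the test (adjusted p = 0.0072). Without uncrushed replicate 1 the day 7 call was lost (-0.72, adjusted p = 0.0596), as without day 7 replicate 2 (-0.71, adjusted p = 0.0648). The rise from day 3 to day 7 was lost without day 3 replicate 2 (0.82, adjusted p = 0.0703) or day 7 replicate 1 (0.98, adjusted p = 0.0604).

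In whole nerve Ajuba read 10.3 and 11.5 uncrushed, 2.46 and 2.65 at day 3, then 3.95 and 3.61 at day 5, then 4.03 and 4.57 at day 7. The falls were 4.47-fold, 3.09-fold and 2.7-fold (adjusted p = 1.25e-06, 1.17e-05 and 3.84e-05). Of the 8 groups, uncrushed whole nerve was the highest and Schwann cells at day 3 the lowest.

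Amotl2 in Schwann cells went from 20.1 and 17.4 to 11.2 and 11.8 at day 3, then 9.50 and 11.9 at day 5, then 12.2 and 12.8 at day 7. Both uncrushed libraries were above all crushed ones. The log2 differences were -0.67, -0.79 and -0.57 (SE 0.13 each, adjusted p = 0.00161, 0.000595 and 0.00493). Whole nerve read 7.54 and 6.79 uncrushed and 5.43 to 9.44 over the crushed libraries, with no difference from uncrushed called.

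**Figure D2:**
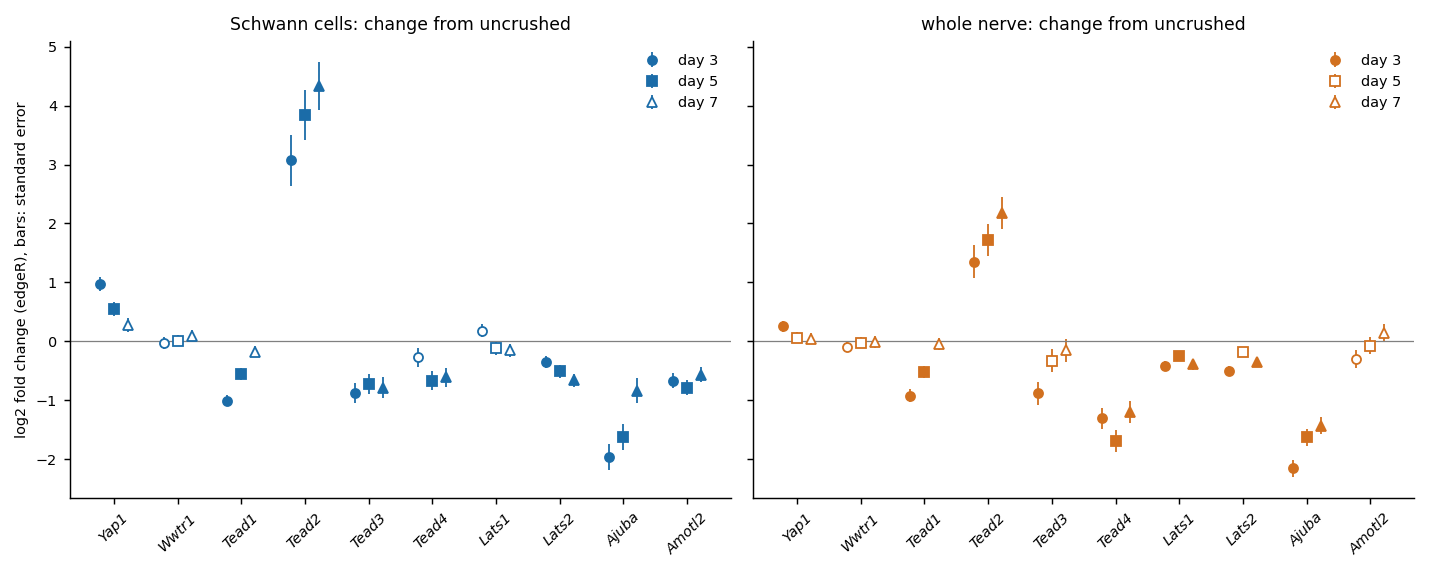
Log2 fold change from uncrushed (edgeR, bars: SE) of the 10 genes at days 3, 5 and 7, in Schwann cells on the left and whole nerve on the right. Filled markers passed an adjusted p below 0.05 and open markers did not. Tead2 is the only strongly positive gene (3.07 to 4.33 in Schwann cells) and Ajuba the most negative at day 3.

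Counted together, 7 of the 10 genes were called in Schwann cells at day 3 (2 higher, 5 lower), where 52.5% of all 14961 genes tested were called (26.9% higher, 25.7% lower). At day 5 the count was 8 (2 higher, 6 lower) against 54.6% of all genes (29.0% and 25.6%), and at day 7 it was 6 (1 higher, 5 lower) against 46.9% (25.0% and 21.9%). Their median log2 difference was -0.31, -0.54 and -0.37, beside 0.00, 0.06 and 0.06 over all genes. Of the 9 genes other than Tead2, 6, 7 and 5 were called, with a median of -0.35, -0.56 and -0.57. Between day 3 and day 7, 4 were called (3 higher, 1 lower) against 21.0% of all genes (10.2% and 10.7%), and 2 without day 3 replicate 2 or day 7 replicate 1. Lats1 (-0.33, adjusted p = 0.0558) and Lats2 (-0.31, adjusted p = 0.0672) narrowly missed the threshold, and were called lower under 6 and 3 of the 8 alternatives that keep every library. Tead2 (1.26, adjusted p = 0.016) was among the 4 and lost its call without any 1 of the 4 libraries concerned.

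In whole nerve 8 were called at day 3 (2 higher, 6 lower) against 45.6% of 15831 genes tested (23.1% higher, 22.5% lower). Then 5 were called at day 5 (1 higher, 4 lower) against 38.4% (18.9% and 19.5%), and 5 at day 7 (1 higher, 4 lower) against 31.3% (15.4% and 15.9%). From day 3 to day 7 Tead1, Tead2, Tead3 and Ajuba rose, 4 of 10 against 21.2% of all genes (9.85% higher, 11.4% lower), by 0.88, 0.84, 0.73 and 0.73. This count was 1 without day 3 replicate 1 and 2 without day 3 replicate 2, Tead1 keeping its call throughout. Tead2 lost its call without any 1 of the 4 libraries concerned (0.71 to 0.96), Tead3 without 3 of them (0.58 to 0.88) and Ajuba without day 3 replicate 1 (0.66). The shared uncrushed libraries enter all 3 comparisons of a tissue.

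Ratios within a library do not depend on its scaling. Yap1 over Wwtr1 was 0.331 and 0.317 in uncrushed Schwann cells, 0.619 and 0.681 at day 3, then 0.449 and 0.489 at day 5, then 0.328 and 0.412 at day 7. The ratio was highest at day 3 and overlapped the uncrushed range again at day 7. In whole nerve it was 0.725 and 0.628 uncrushed, 0.889 and 0.840 at day 3, and 0.679 to 0.753 afterwards.

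The sum of Yap1 and Wwtr1 over the sum of the 4 TEAD genes changed more. In Schwann cells it was 0.599 and 0.605 uncrushed, 1.36 and 1.45 at day 3, then 0.983 and 0.965 at day 5, then 0.745 and 0.738 at day 7. In whole nerve it was 1.52 and 1.3 uncrushed, 2.64 and 2.71 at day 3, then 2.14 and 1.88 at day 5, then 1.47 in both libraries of day 7. By these RSEM levels TEAD RNA exceeded coactivator RNA in uncrushed Schwann cells, and the reverse held at day 3. A second deposited estimate, made with Cufflinks for a table of co-expression modules, holds Tead1 (26.6), Wwtr1 (25.6) and Yap1 (1.47) in uncrushed cells but no other TEAD gene, so the sums could not be compared there.

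Lats2 over Lats1 was 2.16 and 2.11 in uncrushed Schwann cells and 1.40 to 1.70 in the 6 crushed libraries, with no overlap. The whole nerve ratio stayed between 1.36 and 1.60. These ratios were not tested. An exact permutation test of 2 libraries against 2 cannot go below p = 0.333, and no model was fitted to them.

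**Figure D3:**
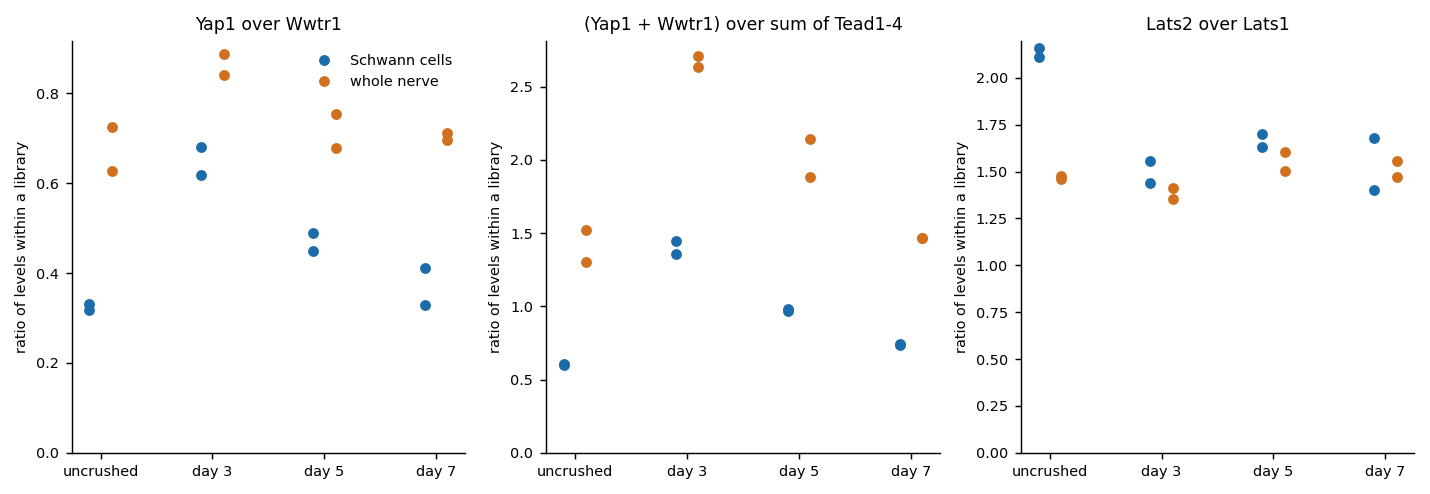
Ratios of levels within each library by day, 1 point per library, blue for Schwann cells and orange for whole nerve, linear axes from 0. Yap1 over Wwtr1 and coactivators over TEAD both peak at day 3, at 0.681 and 1.45 in Schwann cells and 0.889 and 2.71 in whole nerve, and Lats2 over Lats1 is highest in uncrushed Schwann cells.

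Purified Schwann cells were then set against whole nerve of the same day. These differ in cell makeup and in that only the purified cells were dissociated, and the part of each was not tested. In uncrushed tissue 9 of 10 genes were called (6 higher, 3 lower), against 64.4% of 16829 genes tested (29.1% higher, 35.3% lower). Tead1 (2.76-fold), Amotl2 (2.61-fold), Tead3 (2.44-fold), Lats2 (2.00-fold), Wwtr1 (1.37-fold) and Lats1 (1.35-fold) were higher in Schwann cells, with adjusted p from 2.69e-08 to 0.00187. Yap1 (1.52-fold), Tead2 (3.30-fold) and Ajuba (2.12-fold) were lower, with adjusted p = 0.000247, 0.00453 and 0.000101. The Tead2 call was lost without uncrushed Schwann cell replicate 1 (-1.10, adjusted p = 0.0733) and with only the 4 libraries compared (-1.71, adjusted p = 0.0516).

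After crush 8 genes were called at each day. At day 3 they were 7 higher and 1 lower against 57.3% of all genes (24.5% and 32.8%), and at day 5 again 7 and 1 against 51.7% (23.2% and 28.4%). At day 7 they were 6 higher and 2 lower against 51.0% (22.4% and 28.7%). Tead1 (log2 1.28, 1.3 and 1.22), Wwtr1, Lats1, Lats2, Tead3 and Amotl2 were higher in Schwann cells at each, and Ajuba was lower (-1.0, -1.21 and -0.61). Yap1 was not called between the tissues at day 3 (0.01, SE 0.11, adjusted p = 0.935) and lower in Schwann cells at day 7 (-0.49, adjusted p = 0.00172). Tead4 was higher in Schwann cells at day 3 (0.69, adjusted p = 0.00296) and day 5 (0.67, adjusted p = 0.00568). The median log2 difference of all genes was -0.11 at day 3 and nearer 0 at the other times.

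Some of these calls rested on 1 library. At day 7 Tead3 (0.54) was lost without Schwann cell replicate 1 (0.24, adjusted p = 0.363) or whole nerve replicate 2 (0.39, adjusted p = 0.174), Ajuba without replicate 2 of either tissue (-0.48 and -0.51), and Amotl2 (0.56) without whole nerve replicate 1 (0.40). At day 5 Wwtr1 (0.37) was lost without Schwann cell replicate 1 (0.27), Tead4 without whole nerve replicate 1 (0.47), and Amotl2 (0.55) without Schwann cell replicate 2 (0.38). In whole nerve, fewer Schwann cells and less RNA per cell cannot be told apart, and macrophage markers there summed to 145 to 162 uncrushed and 309.9 to 521 after crush.

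**Figure D4:**
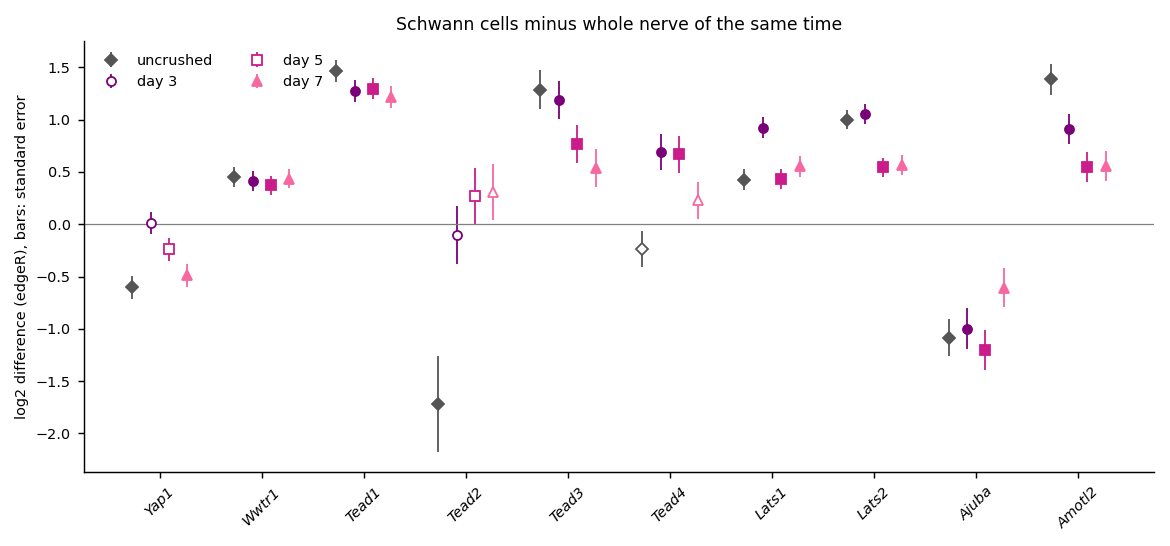
Log2 difference of Schwann cells minus whole nerve of the same time (edgeR, bars: SE) for the 10 genes, with filled markers past an adjusted p below 0.05 and open ones not. Values above 0 are higher in Schwann cells. Tead1 stays near 1.2 to 1.5, Ajuba stays below 0, and Yap1 moves from -0.60 to 0.01 at day 3 and back to -0.49 at day 7.

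Whether the injury effect itself differed between Schwann cells and whole nerve was tested directly. At day 3 Yap1 rose more in Schwann cells by 0.62 (SE 0.15, adjusted p = 0.00838) and Tead2 by 1.62 (SE 0.54, adjusted p = 0.0394). Tead4 (0.93, SE 0.24, adjusted p = 0.0103) and Lats1 (0.50, SE 0.14, adjusted p = 0.0183) differed in the same sense, each lower in crushed whole nerve. That is 4 of 10, all in the positive direction, where 26.0% of all genes were called (12.3% positive, 13.7% negative). The Yap1 difference kept its call without any 1 library, Tead4 lost it without day 3 replicate 2 of Schwann cells (0.78, adjusted p = 0.0547) or replicate 1 of whole nerve (0.81, adjusted p = 0.0519), and Lats1 and Tead2 lost it without 3 and 6 of the 8 libraries concerned (0.39 to 0.47 and 0.99 to 1.75).

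At day 5 the differing genes were Tead2 (1.99, adjusted p = 0.0125), Tead4 (0.91, adjusted p = 0.013), Lats2 (-0.46, adjusted p = 0.0194) and Amotl2 (-0.84, adjusted p = 0.00683), 4 of 10 against 27.5% (12.6% and 14.9%). At day 7 they were Tead2 (2.03, adjusted p = 0.0117), Tead3 (-0.75, adjusted p = 0.0469), Lats2 (-0.43, adjusted p = 0.0277) and Amotl2 (-0.83, adjusted p = 0.00805), against 26.0% (11.6% and 14.4%). Amotl2 kept its call without any 1 library at both days. Tead2 lost both calls without uncrushed Schwann cell replicate 1 (1.37, adjusted p = 0.0801, and 1.41, adjusted p = 0.0748) or uncrushed whole nerve replicate 2 (1.78, adjusted p = 0.0528, and 1.80, adjusted p = 0.0525). Tead3 (-0.78 to -0.52) and Lats2 (-0.46 to -0.30) each lost the day 7 call without 6 of the 8 libraries, Lats2 the day 5 call without 5 of them (-0.46 to -0.32), and Tead4 the day 5 call without whole nerve day 5 replicate 1 (0.71, adjusted p = 0.0659).

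Of the rest of the kinase core, 15 genes were tested in Schwann cells at day 3, of which 3 rose and 5 fell, with a median of -0.05. That is 53.3% called at day 3, beside 52.5% of all genes (26.9% higher, 25.7% lower). At day 7 it was 66.7% (4 higher, 6 lower) beside 46.9%. The upstream kinases Stk3 (-0.10) and Stk4 (-0.33, adjusted p = 0.025), which phosphorylate LATS, the scaffold Sav1 (-0.05) and the tumor suppressor Nf2 (0.22) had small differences, of which only that of Stk4 was called. Mob1a (0.55, adjusted p = 0.00077) and Mob1b (0.69, adjusted p = 0.0165), the coactivators of LATS, and the kinase Map4k4 (0.75, adjusted p = 0.000133) rose. Taok3, a kinase upstream of the cascade, fell by 1.02 (adjusted p = 0.000126), Frmd6 by 0.73 and Wwc2 by 0.64. In whole nerve 3 of 16 rose and 5 fell at day 3, with a median of -0.15, beside 45.6% of all genes called (23.1% higher, 22.5% lower), and at day 5 there were 1 and 3, or 25% beside 38.4%.

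Among 17 other partners and inhibitors tested, 6 rose and 4 fell in Schwann cells at day 3, and 0 rose and 8 fell in whole nerve. That is 58.8% and 47.1% called, beside 52.5% and 45.6% of all genes. Amotl1, a relative of Amotl2, went from 19.4 and 17.4 to 59.1 and 52.6 in Schwann cells (log2 1.64, SE 0.12, adjusted p = 3.02e-06), opposite in direction to Amotl2. Amot, the founding angiomotin, rose by 0.84 (adjusted p = 0.000701). Btrc, a ubiquitin ligase subunit that targets phosphorylated YAP and TAZ, rose by 1.28 (adjusted p = 2.35e-05).

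Vgll3, a cofactor that binds TEAD proteins in place of YAP, fell the most of this list. It read 142.8 and 135.9 in uncrushed Schwann cells and 30.5 and 27.8 at day 3, a fall of 2.23 on the log2 scale (SE 0.12, adjusted p = 3.5e-07), and it fell at the later days too (log2 -2.96 and -2.93). In whole nerve its differences were -2.11, -2.08 and -2.06. The phosphatase Ptpn14 fell by 0.39 in Schwann cells at day 3.

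Of 17 YAP and TAZ target genes tested in Schwann cells, 4 rose and 6 fell at day 3 (58.8% called, median -0.20), beside 52.5% of all genes called. At day 5, 5 rose and 7 fell (70.6% beside 54.6%), and at day 7, 4 rose and 7 fell (64.7% beside 46.9%). Of 18 in whole nerve, 6 rose and 2 fell at day 3, with a median of 0.21, or 44.4% beside 45.6% of all genes.

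Ccn1, a matricellular protein gene listed under its older symbol Cyr61, read 802 and 919 in uncrushed Schwann cells and 303 and 308 at day 3. It fell by 1.47 (SE 0.18, adjusted p = 0.000117) and stayed lower at days 5 and 7 (log2 -1.44 and -1.21). Ccn2, listed as Ctgf, went from 16.4 and 15.3 to 4.94 and 6.11 at day 3 (log2 -1.48, SE 0.22, adjusted p = 0.000367), then to 14.2 and 11.7 and to 10.5 and 16.8, with neither later difference called. Ankrd1, with 18 to 39 counts a Schwann cell library, showed -0.44 (SE 0.39, adjusted p = 0.366). Ccdc80, a secreted matrix protein gene abundant in whole nerve, showed the largest fall of the list in Schwann cells (log2 -4.26 at day 3). Fibroblast markers there summed to 324 and 555 in uncrushed cells and 274 and 290 at day 3, with the lower uncrushed library close to day 3. Their part in the Ccdc80 value was not tested.

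Myof, a membrane repair protein gene, rose by 1.74 (adjusted p = 3.08e-06), Axl, a receptor kinase, by 1.26 and F3, tissue factor, by 1.47 in Schwann cells at day 3. Myof and Axl rose in whole nerve as well, by 1.89 and 0.73, and F3 did not pass there (0.14). In whole nerve Ccn1 differed by 0.49 at day 3 (adjusted p = 0.105), and Ccn2 was higher at day 7 by 0.77 (adjusted p = 0.00925).

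Ccn1 is also an immediate-early gene. In uncrushed tissue the Schwann cell level exceeded that of whole nerve by 6.10 on the log2 scale (adjusted p = 2.54e-10). There the immediate-early genes Fos, Atf3, Egr1, Jun and Ier2, picked after their values were seen, were higher too, by 8.39, 6.23, 5.38, 5.02 and 4.35. These 5 genes summed to 2336 to 2743 in uncrushed Schwann cells, 874 to 1073 in crushed ones, and 33.0 to 173 in whole nerve. All 5 fell in Schwann cells at each day, and 4 of 5 rose in whole nerve at day 3. Their part in the Ccn1 values was not tested, and dissociated nerve was not analysed here. The 9 cell division genes rose at every day in both tissues, with a median of 1.69 in Schwann cells and 3.16 in whole nerve at day 3.

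**Figure D5:**
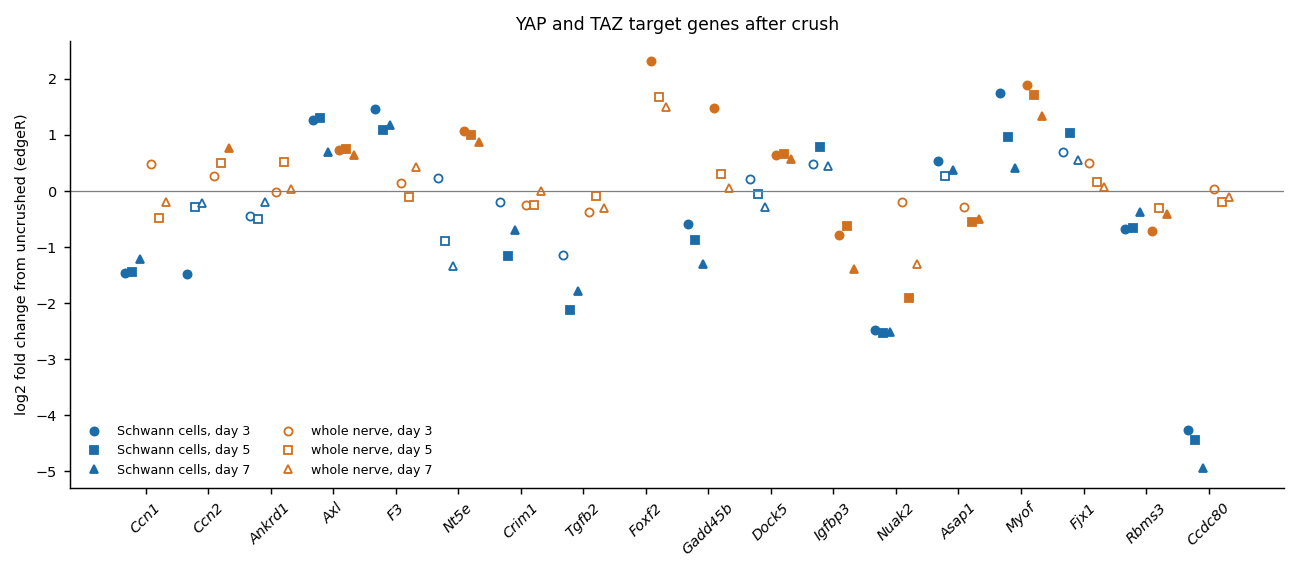
Log2 fold change from uncrushed (edgeR) of the 18 YAP and TAZ target genes in the tables, at days 3 (circles), 5 (squares) and 7 (triangles), blue for Schwann cells and orange for whole nerve. Filled markers passed an adjusted p below 0.05. Ccn1, Nuak2 and Ccdc80 are below 0 in Schwann cells at each day, whereas Axl and Myof are above 0 in both tissues.

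As a description of pattern, the genes most like each member over the 16 libraries were found by Pearson's r of log2(FPKM + 1) among 8470 genes with a mean FPKM of at least 5. The 16 points fall into 2 tissues of 8 libraries each and share that difference, and marker levels of other cell types also moved with day in whole nerve. Their part in these values was not tested. Tead1 was most like Plxnb3 (r = 0.988) and Git1 (0.98), Lats1 like Lcor (0.983) and Fermt2 (0.981), Lats2 like Med13 (0.981) and Ank3 (0.98), and Amotl2 like Spen (0.979) and Tp53bp2 (0.974). Tead3 was most like Zdhhc17 (0.976) and Epb41l4b (0.971), Wwtr1 like Vezf1 (0.975) and Pcdh7 (0.974), and Tead2 like Pcbd1 (0.971) and Rara (0.965). Ajuba was most like Filip1 (0.965) and LOC102549542 (0.955), Yap1 like Cdc34 (0.941) and Ctsa (0.939), and Tead4 like Cryab (0.94) and Cd9 (0.917). Within the 8 Schwann cell libraries, on TMM-scaled levels, the strongest pair of members was Tead2 with Lats2 (r = -0.97). Next came Yap1 with Tead1 (r = -0.94) and with Ajuba (r = -0.92), and Tead1 with Ajuba (r = 0.91). The 8 libraries are 4 groups of 2, so they are not independent points.

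Ordered by group mean over the 8 groups, Tead1, Lats2, Wwtr1, Lats1, Tead3 and Amotl2 had all 4 Schwann cell groups above all 4 whole nerve groups. Neighbouring groups whose libraries overlapped were most frequent for Wwtr1 and Tead3 (4 of 7 neighbours each) and absent for Lats2. With 2 libraries a group, overlap or its absence is a description and not a test. For Lats2, whole nerve at day 5 and uncrushed did not overlap, yet their difference was not called (edgeR log2 -0.18, adjusted p = 0.1004). How often all genes show such orders was not counted. Yap1 was highest in both day 3 groups, which overlapped each other, and lowest in uncrushed Schwann cells. For Ajuba only Schwann cells at day 7 and whole nerve at day 3 overlapped.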

How the data were processed

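Paired-end libraries made with an unstranded amplification kit were aligned by the authors to Rnor_6.0 with STAR and quantified per gene with RSEM. Deposited values were expected counts, TPM and FPKM per gene and library, and a table of co-expression modules with Cufflinks FPKM for 6274 genes. Replicates are separate pools of nerves, numbered by the labels.

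Expected counts, as deposited, were rounded and fitted with edgeR 4.0.16 (R 4.3.3, quasi-likelihood test, TMM, filterByExpr, 2-sided), within 8 Schwann cell libraries, 8 whole nerve libraries or all 16, with group as the only term. Adjusted p is Benjamini-Hochberg over all genes tested. Levels are the deposited FPKM divided by the TMM factor over all 16 libraries, whereas fits within a tissue used factors from its 8 libraries. Small differences can therefore differ in sign. The mean level of Tead1 in whole nerve was 46.89 uncrushed and 48.35 at day 7, beside a fitted log2 difference of -0.05. The TMM factor was 0.82 in uncrushed whole nerve and 0.994 to 1.07 elsewhere. DESeq2 1.42.0, other scalings, filters, sample sets, a replicate block and omission of each library were tried. The scripts were tested on simulated data with 200 genes changed at day 3. At the 0.05 threshold edgeR recovered 129 of these for Schwann cells (14531 genes), with 19 false calls of 148. For whole nerve (15440 genes) it recovered 126, with 14 false calls of 140. Calls near the threshold are thus less certain than it states, and a true change can be missed. Far more genes were called in the data, so these shares need not hold there. Replicate libraries differed by more than counting noise. The replicate differences of different groups did not go together (correlation -0.06 to 0.08 over 28 pairs), so replicate numbers were not used as pairs.

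The members and lists were chosen with earlier results of these data known. Named genes were the 10 members, Stk3, Stk4, Sav1, Mob1a, Mob1b, Nf2, Ccn1, Ccn2 and Ankrd1, and per pathway list the 3 risers and the 3 fallers of smallest adjusted p in Schwann cells at day 3. Cd37 and the immediate-early genes were added after values were seen. Arhgef17 of the target list was not found, and 1 gene that the rule names is not reported here. Promoters came from RefSeq (GRCr8), a build other than that of the files. RefSeq also gave the overlapping records. No genome sequence of Rnor_6.0 and no protein table were used here.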

Additional observations from a re-analysis of the deposited data

Results flagged for a closer look

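The change after crush differed between Schwann cells and whole nerve for 12 combinations of gene and day, by the edgeR test of the difference itself, the Schwann cell change minus the whole nerve change on the log2 scale. At day 3 the differences were 0.62 for Yap1, 1.62 for Tead2, 0.93 for Tead4 and 0.50 for Lats1. At day 5 they were 1.99 for Tead2, 0.91 for Tead4, -0.46 for Lats2 and -0.84 for Amotl2. At day 7 they were 2.03 for Tead2, -0.75 for Tead3, -0.43 for Lats2 and -0.83 for Amotl2. The Tead2 values rest on 3 and 8 counts in uncrushed Schwann cells. Of the 12, Yap1 at day 3 and Amotl2 at days 5 and 7 kept their calls without any 1 library.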

How the results depend on the processing

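The count of members called stayed within 1.5 times the main count under DESeq2, other scalings and filters, the replicate block, a joint fit and a fit of only the libraries compared. The replicate block gave the same counts except 5 in place of 4 for whole nerve day 7 against day 3, where Amotl2 was called (0.44, adjusted p = 0.0423), and its pairing is not one that the samples share. Of 1089 member values under these settings, 1042 kept direction and side of the threshold, 15 were called only under the alternative, 15 lost their call and 17 changed sign. All 17 belonged to values near 0 and none was called. Wwtr1 at day 5 in Schwann cells was -0.0444 with DESeq2, -0.0555 with upper quartile scaling, -0.0445 with relative log scaling, -0.0390 with at least 10 counts in every library, -0.0142 in the joint fit and -0.0204 with 4 libraries. Wwtr1 in whole nerve was 0.0032 with no filter and 0.0703 in the joint fit at day 5, and 0.0362 (upper quartile), 0.0081 (no filter) and 0.0795 (joint fit) at day 7. Tead1 in whole nerve at day 7 was 0.0029 (upper quartile) and 0.0463 (joint fit), and Amotl2 at day 5 was 0.0235 (joint fit). The tissue difference of the day 5 effect of Lats1 was -0.0201 with DESeq2 and -0.0196 with relative log scaling, and that of the day 7 effect of Wwtr1 was 0.0160 with upper quartile. The cause was not tested. Tead2 was not tested in fits with Schwann cells when every library had to hold at least 10 counts. With DESeq2, Yap1 in whole nerve at day 3 (0.25, adjusted p = 0.0503), Tead2 in whole nerve from day 3 to 7 (0.84, adjusted p = 0.0786) and the tissue differences of Tead2 at day 3 (1.66, adjusted p = 0.0501) and Tead3 at day 7 (-0.79, adjusted p = 0.0582) lost their calls. The day 7 tissue difference of Tead3 also lost its call with upper quartile scaling (-0.72) and with no filter (-0.77). Lats1 in whole nerve at day 5 lost it under 5 of the 8 settings (-0.25 to -0.15), and Lats2 there at day 7 in the joint fit (-0.25, adjusted p = 0.0599). With only the 4 libraries compared, Tead3 lost its call between tissues at day 7 (0.52, adjusted p = 0.089) and Yap1 gained one at day 5 (-0.25, adjusted p = 0.036). From day 3 to day 7, Lats1 in Schwann cells was called under 6 of the settings (-0.35 to -0.32), Lats2 under 3 (-0.33 to -0.30), and Amotl2 in whole nerve under 5 (0.42 to 0.48).

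With each library left out in turn, the counts of members called moved by over 1.5 times in 5 comparisons. They ranged from 2 to 3 for Schwann cells day 7 against day 3 (2 without day 3 replicate 2 or day 7 replicate 1) and from 1 to 3 for whole nerve day 7 against day 3 (1 and 2 without day 3 replicates 1 and 2). The tissue difference of the day 3 effect ranged from 1 (without whole nerve day 3 replicate 1) to 4, with 2 without either Schwann cell day 3 library. That of the day 5 effect ranged from 2 (without uncrushed Schwann cell replicate 1 or whole nerve day 5 replicate 1) to 4. That of the day 7 effect ranged from 1 (without uncrushed Schwann cell replicate 1) to 3, with 2 without Schwann cell day 7 replicate 2, either uncrushed whole nerve library or whole nerve day 7 replicate 1. Member values whose sign changed with a library left out were all uncalled, with these ranges. In Schwann cells Wwtr1 was -0.0939 to 0.0001 at day 3 and -0.0844 to 0.1207 at day 5, and Tead3 from day 3 to 7 was -0.1957 to 0.3208. In whole nerve against uncrushed, Yap1 was -0.0149 to 0.152 at day 5 and -0.0303 to 0.1357 at day 7, Wwtr1 -0.045 to 0.0017 and -0.0776 to 0.0819, and Amotl2 -0.1316 to 0.0047 and -0.0216 to 0.3237. At day 7 Tead1 was -0.1429 to 0.0628 and Tead3 -0.2851 to 0.0028. From day 3 to 7 Wwtr1 was -0.002 to 0.1646, Tead4 -0.0137 to 0.248 and Lats1 -0.0407 to 0.0936. Schwann cells against whole nerve gave -0.0691 to 0.085 for Yap1 and -0.2332 to 0.0275 for Tead2 at day 3, and -0.0439 to 0.5348 for Tead2 at day 5. For the tissue difference at day 3, Wwtr1 was -0.1164 to 0.0416, Tead3 -0.2409 to 0.0544, Lats2 -0.0657 to 0.1848 and Ajuba -0.2221 to 0.3948. At day 5 Wwtr1 was -0.1825 to 0.0116, Lats1 -0.099 to 0.1226 and Ajuba -0.2318 to 0.0058, and at day 7 Yap1 was -0.0226 to 0.2474 and Wwtr1 -0.0879 to 0.0606.

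Limits: 2 pooled libraries a group leave little to estimate the spread, so omission of 1 library assumes that the lone library varies like the others. Levels of Tead2 (3 to 149 counts) are the least precise. RNA per cell and cell number cannot be told apart in whole nerve, and protein activity was not measured.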

Other observations

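The module table carries a different estimate of the same Schwann cell samples, made by the authors with TopHat2 and Cufflinks, with 2 columns per day that were averaged here. It holds 5 of the 10 genes, with Ajuba in module 3, Yap1 in module 5, Tead1 in module 6, Wwtr1 in module 9 and Lats1 in module 10. Tead2, Tead3, Tead4, Lats2 and Amotl2 are not among its genes. With a pseudocount of 0.1, the log2 ratios to uncrushed at days 3, 5 and 7 were 1.64, 1.39 and 1.19 for Yap1 and -0.54, 0.29 and 0.33 for Tead1. The sign for Tead1 at days 5 and 7 is thus opposite to that from the RSEM levels (-0.58 and -0.19).

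The median ratio over 6245 genes shared by both estimates was 0.37, 0.68 and 0.52 higher in the Cufflinks values. After subtracting it, Tead1 was -0.90, -0.39 and -0.18 and Yap1 1.27, 0.71 and 0.68, beside RSEM ratios of 0.94, 0.52 and 0.26 for Yap1. Ajuba was -1.97, -1.63 and -0.97 after centring and -1.89, -1.59 and -0.84 from RSEM. The columns name a day and no tissue, and of the pair for each day 1 is marked as a second sample. No test was run on them. The uncrushed levels in this estimate were 1.47 for Yap1, 25.6 for Wwtr1, 26.6 for Tead1, 14.1 for Lats1 and 1.63 for Ajuba. The columns were taken as Schwann cells from the study's methods.

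The TEAD word was in 3 of 13 promoter windows found for target genes (23.1%, beside 14.2% of all promoters). These were Ccn1 (at -113), Ccn2 and Nuak2 (at -228), whereas the windows of Axl and Myof, which rose, held none. Whether the word bears on any change was not tested. Nuak2, a kinase gene, fell in Schwann cells at each day after crush, with log2 differences of -2.48, -2.54 and -2.52 (edgeR adjusted p = 0.000388, 0.000375 and 0.00055). It was chosen here after its values were seen. Fat4, an atypical cadherin gene upstream of the pathway, showed log2 differences of -1.05, -1.95 and -2.18 in Schwann cells and -0.71, -0.48 and -0.58 in whole nerve, each called, and was likewise chosen after its values were seen.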
